A study of Mus musculus with 236 samples.

Results

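The 10 genes described here were taken by name as imprinted genes from the 39300 gene rows of a deposited single-cell expression table. They are Meg3, Rian, Mirg, H19 and Kcnq1ot1, which make long noncoding RNAs, and Igf2, Igf2r, Grb10, Peg10 and Snrpn, which code for proteins. In mammals an imprinted gene is read mainly from the copy of 1 parent, because the copies carry different marks from egg and sperm, most often DNA methylation at an imprinting control region. Such genes lie in clusters that share a control region, and several clusters hold a long noncoding RNA and genes for growth factors, their receptors or signalling adaptors. In embryonic stem cells imprints are kept by KRAB zinc finger proteins such as ZFP57, which binds the methylated hexamer TGCCGC, and some imprints are known to be lost in culture.

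The cells came from a single female mouse embryonic stem cell line, derived from a blastocyst of a C57BL/6J mother and a CAST/EiJ father. The line was kept on gelatin in serum medium with leukemia inhibitory factor (LIF) and 2i, a pair of inhibitors of GSK3 (CT99021) and MEK (PD0325901), per the labels' protocols. Differentiation was started on fibronectin by removing 2i and LIF, and cells were taken at day 0.5 and day 2.5. The methods of the labels name no transgene and no other agent, and every value is from this 1 hybrid line. RNA and chromatin contacts had been read from the same single cells, and the RNA alone is described here. The expression table gives totals over both parental copies. It therefore says how much RNA of each gene was counted, not from which parent.

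The 236 libraries hold 1 to 2 cells each and name 471 cells, none of them in more than 1 library. Of these, 201 cells of day 0.5 and 205 cells of day 2.5 were in the expression table. A cell of day 0.5 had a median of 13670 unique molecular identifiers (UMIs, each a counted RNA molecule; range 501 to 23213), and a cell of day 2.5 had 15796 (range 529 to 29275). Separate cultures are not named in the labels. Each day was therefore taken as 1 sample, no test across cells was made, and differences have no replicate check. Intervals are 95%. Those of levels and ratios cover counting error only, those of shares of cells cover the sampling of cells, and none covers replicates. The deposited cell table gives each cell 1 of 3 sample labels, and the sources used here do not say what these stand for. Label 1 held 80 cells of day 0.5 only, label 3 held 83 cells of day 2.5 only, and label 2 held 121 cells of day 0.5 and 122 of day 2.5. Values within label 2 are therefore given beside the pooled ones.

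The labelled cell type was checked against markers. The 7 naive pluripotency genes were all present and summed to 1095 CPM (UMIs scaled to 1000000 per group of cells) at day 0.5 and 73.4 at day 2.5. The 5 general pluripotency genes summed to 487 and 395 CPM. The formative or primed genes, of which 4 of 5 listed names were in the table, summed to 631 and 1629 CPM. Markers of feeder fibroblasts summed to 7.53 and 6.91 CPM over 6 genes, those of trophoblast to 6.78 and 6.91 over 6, those of mesoderm to 9.79 and 4.71 over 5, and those of primitive endoderm to 22 and 42.4 over 6. Of these other cell types' markers Postn, Hand1, Mesp1, Sox7 and Foxa2 were at 0 on both days, and Col1a2, Col3a1, Sox17, Cdx2, Krt7 and Mixl1 were at 0 at day 0.5 and had 1 to 5 UMIs at day 2.5. Col1a1 and Elf5 had 1 UMI each at day 0.5 and 0 at day 2.5. Their part in the results was not tested.

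Sequence is shown first for the start of Meg3 in the Dlk1-Dio3 cluster. From there 3 of the 10 genes, Meg3, Rian and Mirg, follow and are read in 1 direction. The 250 bases before the RefSeq start of Meg3 (GRCm38.p6, chr12:109540746-109540995, plus strand) hold 1 match to TGCCGC or its complement GCGGCA, given in capitals. Both strands were searched, and 8.68% of all 32817 promoter windows of this length hold a match. The same stretch before the first start of Grb10 (chr11:12037421-12037670, minus strand) and that of Kcnq1ot1 (chr7:143296548-143296797, minus strand) are shown beside it and hold none of these letters, so they carry no capitals. At or just after the start, outside these windows, 1 entry each of Grb10, Igf2 and Snrpn in the promoter table does hold a match.
Meg3: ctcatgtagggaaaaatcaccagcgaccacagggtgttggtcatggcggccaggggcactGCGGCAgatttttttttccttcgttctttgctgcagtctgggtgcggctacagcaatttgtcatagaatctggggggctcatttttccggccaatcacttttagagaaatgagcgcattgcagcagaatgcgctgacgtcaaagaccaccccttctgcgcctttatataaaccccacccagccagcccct
Grb10: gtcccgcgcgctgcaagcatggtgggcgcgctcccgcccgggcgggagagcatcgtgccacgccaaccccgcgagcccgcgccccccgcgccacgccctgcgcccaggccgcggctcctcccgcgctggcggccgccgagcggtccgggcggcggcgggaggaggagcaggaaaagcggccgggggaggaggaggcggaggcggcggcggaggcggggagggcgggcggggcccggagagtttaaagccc
Kcnq1ot1: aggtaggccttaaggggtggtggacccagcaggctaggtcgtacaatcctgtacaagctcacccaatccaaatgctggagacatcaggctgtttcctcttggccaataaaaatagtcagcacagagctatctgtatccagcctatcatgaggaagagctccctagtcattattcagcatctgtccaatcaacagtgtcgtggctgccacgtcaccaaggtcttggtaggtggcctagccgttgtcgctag
The Grb10 stretch holds 40 CpG dinucleotides, the sites that DNA methylation uses, and 1.09% of all windows hold more. The Meg3 stretch holds 10 and that of Kcnq1ot1 holds 5, against a median of 6 over all windows. A match or a CpG count describes the letters of the reference and shows no binding and no methylation in these cells.

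From Meg3 to Mirg lies a large group of microRNAs, most of them on the strand of Meg3. Mir1906-1 and Mir770 lie within Meg3, and Mir3544, Mir3071 and Mir299b lie on the opposite strand. RefSeq places 60 microRNA genes between the start of Meg3 and the end of Mirg, 10 of them within Mirg. Mature forms are shown for the 3' arms of 3 of the hairpins in Mirg, as examples, and for pairs that share a seed, the bases 2 to 8 that pair with targets, here in capitals.
mmu-miR-409-3p: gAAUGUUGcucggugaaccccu
mmu-miR-369-3p: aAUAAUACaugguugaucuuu
mmu-miR-410-3p: aAUAUAACacagauggccugu
mmu-miR-453: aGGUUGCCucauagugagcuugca
mmu-miR-496a-5p: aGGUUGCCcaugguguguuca
mmu-miR-410-5p: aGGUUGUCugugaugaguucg
mmu-miR-494-5p: aGGUUGUCcguguugucuucuc
mmu-miR-379-3p: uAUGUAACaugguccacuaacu
mmu-miR-411-3p: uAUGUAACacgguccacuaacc
The pair miR-453 and miR-496a-5p share a seed and both lie in Mirg. The pair miR-410-5p and miR-494-5p, and the pair miR-379-3p and miR-411-3p, share theirs with 1 or both arms outside Mirg. Among all mature forms of the stretch, 9 seeds were shared, each by 2. Rows for 38 of these genes were in the expression table and summed to 4 UMIs at day 0.5 and 37 at day 2.5, so the host transcripts are described here and mature microRNAs were not measured.

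Over the 2 days the 10 genes did not move as a block. A gene was called higher or lower where it had at least 20 UMIs over both days, its CPM differed by at least 1.5-fold, and the direction was the same within label 2. Of the 8 genes with enough UMIs, 6 were higher at day 2.5 (Meg3, Rian, Mirg, Igf2r, Grb10 and Snrpn), 1 was lower (Peg10) and 1 was neither (Kcnq1ot1). Over all 13777 genes with at least 20 UMIs, 21.1% were called higher and 25.2% lower by the same rule. The median change of the 8 genes, log2((CPM at day 2.5 + 5)/(CPM at day 0.5 + 5)), was 1.20, and that of all genes tested was -0.06. H19 and Igf2 had too few UMIs to be called. A member needed UMIs on only 1 day to enter, so these counts are not a statement on all 10.

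**Figure D1:**
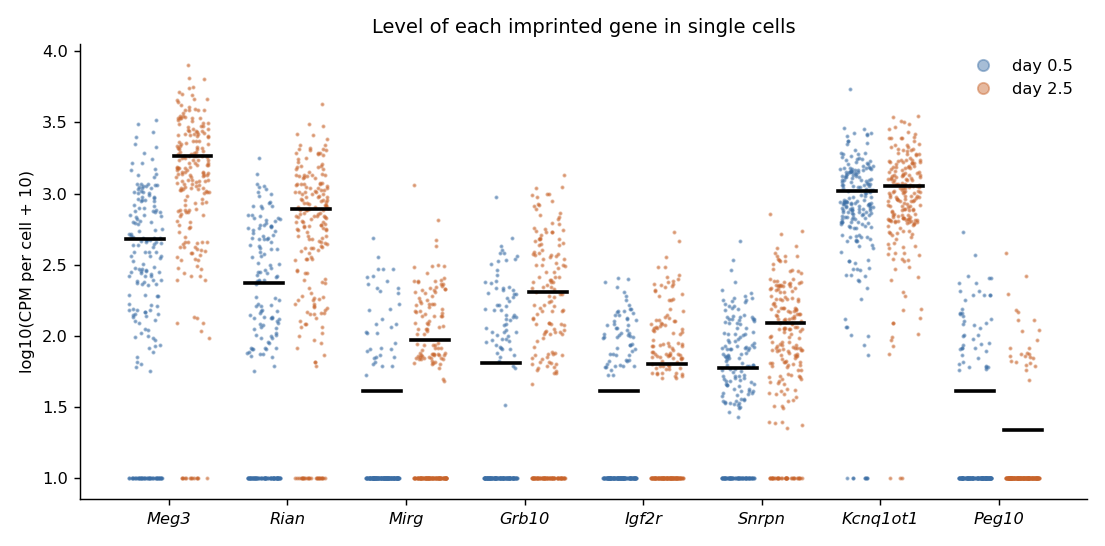
Level in each cell as log10(CPM + 10), for 201 cells of day 0.5 (blue) and 205 of day 2.5 (orange). Each point is a cell, black bars are the CPM of all UMIs of the day summed, and cells without a UMI lie at 1. Every gene has cells without a UMI on both days, and the Meg3 bar lies at 471 CPM at day 0.5 and 1826 at day 2.5.

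Meg3, Rian and Mirg are maternally expressed noncoding RNAs of the Dlk1-Dio3 cluster on chromosome 12, and their shared control region lies upstream of Meg3. Meg3 (chr12:109540996-109571729) had 471 CPM at day 0.5 (445 to 498) and 1826 at day 2.5 (1779 to 1873). A single cell had between 0 and 64 UMIs of Meg3 at day 0.5, with a median of 3, and between 0 and 225 at day 2.5, with a median of 20. The cells of both days thus overlapped over the whole day 0.5 range, while the middle of the distribution lay higher at day 2.5. The ratio of day 2.5 over day 0.5 was 3.87 (3.64 to 4.12), and 3.28 (3.03 to 3.57) within label 2.

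Rian (chr12:109603945-109661716), which hosts C/D box small nucleolar RNAs, changed by a like factor. It had 226 CPM at day 0.5 and 772 at day 2.5, which is a ratio of 3.42 (3.13 to 3.75), and 3.09 within label 2. Cells held 0 to 35 UMIs with a median of 1 at day 0.5, and 0 to 86.5 with a median of 9 at day 2.5. Mirg (chr12:109734981-109749458), the microRNA host at the far end, was rarer. Its level was 31.1 CPM at day 0.5 and 83 at day 2.5, which is a ratio of 2.67 (2.08 to 3.47). The median cell had no UMI of Mirg on either day, and the highest cell had 5 at day 0.5 and 22 at day 2.5. All 3 RNAs were thus higher at day 2.5, with intervals of the ratio above 1.5.

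The paternally expressed genes of the same cluster stayed near the detection limit. Dlk1, which codes for a membrane protein of the Notch ligand family, had 4 UMIs at day 0.5 and 4.5 at day 2.5. Rtl1, a gene derived from a retrotransposon whose RefSeq span overlaps Meg3 and Rian, had 4 and 10, and Dio3, a thyroid hormone deiodinase, had 0 and 1. The change of the cluster was thus measured in its noncoding RNAs alone.

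The proportions of the 3 RNAs were compared next. For each UMI of Meg3 there were 0.479 UMIs of Rian at day 0.5 and 0.423 at day 2.5, and 0.0659 and 0.0455 of Mirg. Over all cells the intervals of the ratios of Meg3 and Mirg between days do not overlap, and that of Mirg was the smaller. Within label 2 they overlap, with 3.28 (3.03 to 3.57) for Meg3 and 2.58 (1.81 to 3.75) for Mirg. In G1 cells Mirg had the larger ratio, 2.81 (1.38 to 6.46) against 2.08 (1.83 to 2.37). So it had in cells with the letter B in their names, on 19 UMIs of Mirg. In the other cell cycle classes with cells of both days Mirg had the smaller ratio. At day 0.5, 31 of 201 cells had UMIs of all 3 and 42 had none. At day 2.5, 97 of 205 cells had all 3 and 10 had none. Cells with Rian but no Meg3 were few, 10 at day 0.5 and 3 at day 2.5, while 44 and 17 cells had Meg3 but no Rian.

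Across cells the 3 RNAs also went together. Counts were compared after each cell had been thinned to 5000 UMIs, which left 194 cells of day 0.5 and 198 of day 2.5. Spearman's rho of Meg3 with Rian was 0.549 at day 0.5 and 0.602 at day 2.5, that of Rian with Mirg 0.392 and 0.239, and that of Meg3 with Mirg 0.216 and 0.299. The 18 other pairs among the 7 genes with at least 200 UMIs ran from -0.14 to 0.203 at day 0.5 and from -0.153 to 0.200 at day 2.5. These correlations are descriptions over cells that share libraries and a culture, and a weak one in counts this sparse is no finding.

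**Figure D2:**
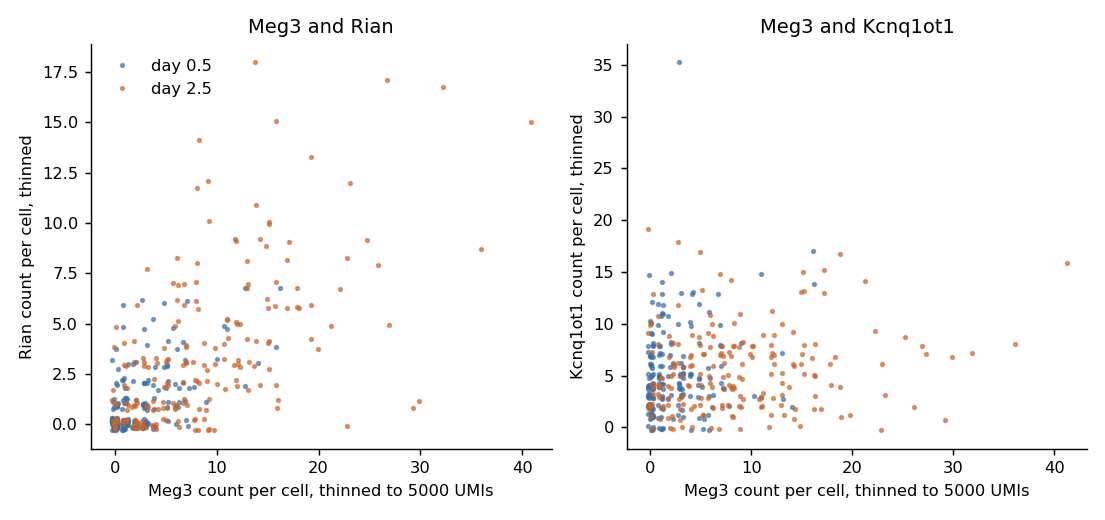
Counts per cell thinned to 5000 UMIs, Meg3 against Rian (left) and Meg3 against Kcnq1ot1 (right), in 194 cells of day 0.5 (blue) and 198 of day 2.5 (orange), with a small random shift so that equal counts can be seen. Spearman's coefficient is 0.549 and 0.602 on the left for the 2 days, and 0.160 and 0.144 on the right.

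The genes most like each RNA in this measure were sought among the 2923 to 2924 other genes with at least 500 UMIs, by the mean rho over both days. For Meg3 these were Rian (0.576), B830012L14Rik (0.417) and Malat1 (0.303), an abundant nuclear RNA. For Rian they were Meg3 (0.576), B830012L14Rik (0.539) and Exoc6b (0.254), and for Mirg they were B830012L14Rik (0.333), Rian (0.315) and Meg3 (0.258). B830012L14Rik has no position in the RefSeq table used.

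Kcnq1ot1 (chr7:143213111-143296547) is a paternally expressed noncoding RNA that lies within Kcnq1 on the opposite strand and silences neighbours on its own chromosome. It was detected in nearly every cell, in 193 of 201 at day 0.5 (96%) and 202 of 205 at day 2.5 (98.5%). The level was 1036 CPM at day 0.5 (997 to 1075) and 1128 at day 2.5 (1091 to 1165). Cells held 0 to 77 UMIs with a median of 12 at day 0.5, and 0 to 69 with a median of 15 at day 2.5, so the days overlapped almost fully. The ratio of 1.09 (1.04 to 1.14) was under the fold that counts as a call.

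Of the 7 cluster genes with at least 20 UMIs, Kcnq1ot1 among them, none was called higher and 2 (28.6%) were called lower. Over all genes 21.1% were called higher and 25.2% lower, so the count of lower genes lay near that share. Kcnq1, a potassium channel subunit, had 38.4 and 26.2 CPM, which is a ratio of 0.682 (0.505 to 0.920). Tssc4 had 11.1 and 8.16 CPM, which is a ratio of 0.735 (0.417 to 1.29). Slc22a18, an organic cation transporter, was lower at 7.72 against 2.82 CPM, on 29.5 UMIs in all, with a ratio of 0.366 (0.147 to 0.837). Tspan32, a tetraspanin, was lower too, at 9.79 against 0.628 CPM, on 26 UMIs at day 0.5 and 2 at day 2.5. The sources used here do not say whether reads were assigned by strand. RNA of Kcnq1ot1 and unspliced RNA of Kcnq1 therefore cannot be told apart with certainty.

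H19 and Igf2 share an enhancer set and a control region, and in mouse Igf2, a fetal growth factor, is paternal and H19, a noncoding RNA that hosts a microRNA, is maternal. H19 (chr7:142575530-142578146) had no UMI in 201 cells at day 0.5 and 4 UMIs in 3 of 205 cells at day 2.5, or 1.26 CPM (0.342 to 3.21). Igf2 (chr7:142650768-142666816) had no UMI on either day. A count of 0 allows a share of up to 1.49% of cells with a UMI at day 0.5 and up to 1.46% at day 2.5, and a level of up to 1.13 and 0.942 CPM. For H19 the interval at day 2.5 includes the limit of day 0.5, so a difference was not detectable at this depth. Ins2, the insulin gene next to Igf2, had 3 and 7 UMIs.

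Igf2r (chr17:12682406-12769706), the receptor that clears IGF2 from the cell surface, is maternal in most mouse tissues. It had 30.9 CPM at day 0.5 (24.6 to 38.3) and 53.4 at day 2.5 (45.6 to 62). The median cell had 0 UMIs on both days, with a highest cell of 4 at day 0.5 and 8 at day 2.5. The ratio was 1.73 (1.32 to 2.28), and 1.93 (1.36 to 2.78) within label 2, so the lower bounds lie under the fold of 1.5. At day 2.5 label 2 had 63.1 CPM and label 3 had 41.1, and label 3 over label 2 was 0.651 (0.466 to 0.902). Airn, the paternal noncoding RNA that overlaps Igf2r and silences it in other tissues, was higher over all cells, with 80.6 and 144 CPM and a ratio of 1.79 (1.52 to 2.11). Of its 458.5 UMIs at day 2.5, 15 Early-S cells held 130.5, and 1 of these cells held 68. Without the Early-S class of both days the ratio of Airn was 1.36 (1.14 to 1.64), under the fold. It was 1.59 in G1, 0.954 (0.692 to 1.31) in Mid-S, 1.41 (0.983 to 2.03) in Late-S, G2 or M, and 0.858 (0.484 to 1.51) in cells with the letter B in their names. For each UMI of Igf2r there were 2.61 UMIs of Airn at day 0.5 and 2.70 at day 2.5. The pair overlap on opposite strands, so reads of the shared stretch cannot be told apart without strand. Slc22a3, an organic cation transporter gene of the cluster, was higher on 33.5 UMIs, with 3.20 and 7.85 CPM.

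Grb10 (chr11:11930499-12037428) codes for an adaptor that damps insulin and IGF receptor signalling and is maternal in most tissues other than neurons. It had 54 CPM at day 0.5 (45.6 to 63.6) and 194 at day 2.5 (179 to 210), which is a ratio of 3.59 (2.99 to 4.34), and 2.84 (2.26 to 3.62) within label 2. Cells held 0 to 8 UMIs with a median of 0 at day 0.5, and 0 to 26 with a median of 1 at day 2.5. At day 0.5 the level differed between labels, 40.7 CPM in label 1 and 65.3 in label 2, and at day 2.5 it was 186 in label 2 and 204 in label 3. Ddc, a decarboxylase gene beside Grb10, went the other way, with 36 and 9.10 CPM and a ratio of 0.253 (0.161 to 0.387).

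The paternally expressed Peg10 (chr6:4747306-4760517), which derives from a retrotransposon and is known for its part in the placenta, was the only member called lower. It had 82 UMIs at day 0.5, or 30.9 CPM (24.6 to 38.3), and 38 at day 2.5, or 11.9 CPM (8.44 to 16.4). The ratio was 0.386 (0.256 to 0.574), and 0.418 (0.218 to 0.772) within label 2. A single cell had at most 6 UMIs on either day, and 1 cell held 15.8% of all Peg10 UMIs at day 2.5. Label 1 had 40.3 CPM at day 0.5 against 22.9 in label 2.

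Sgce, a sarcoglycan gene that starts beside Peg10 on the other strand and is paternal too, moved opposite to it. Its level was 25.2 CPM at day 0.5 and 64.5 at day 2.5, which is a ratio of 2.56 (1.93 to 3.42). Ppp1r9a, a neurabin gene further along, was lower, with 1356 and 702 CPM and a ratio of 0.517 (0.491 to 0.546). Calcr, the calcitonin receptor, was higher on 70 UMIs, with 4.52 and 18.2 CPM, and Pon2, a paraoxonase, on 47 UMIs, with 5.27 and 10.4 CPM. Of the 6 cluster genes with enough UMIs, 3 (50%) were called higher and 2 (33.3%) lower, Peg10 being 1 of the latter. Over all genes these shares were 21.1% and 25.2%.

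Snrpn (chr7:59982495-60450177) codes for a small nuclear ribonucleoprotein of the spliceosome and is paternal, as are most genes of the Prader-Willi region around it. It had 49.7 CPM at day 0.5 (41.6 to 58.9) and 114.1 at day 2.5 (102.7 to 126), which is a ratio of 2.30 (1.88 to 2.82), and 2.52 (1.90 to 3.38) within label 2. Cells held 0 to 6.67 UMIs with a median of 0.5 at day 0.5, and 0 to 8.33 with a median of 1.17 at day 2.5. Of its values above 0, 78.7% were fractions, against 0% for Igf2r and Peg10 and 33.1% for Rian. The sources used here do not say how the fractions were made. Snurf, which shares its start and transcript with Snrpn, had 14.3 and 31.6 CPM.

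Among the other genes listed for this cluster, none of those with enough UMIs was called lower. Snhg14, the long RNA that runs from Snrpn towards Ube3a, had 224 and 421 CPM, which is a ratio of 1.88 (1.71 to 2.07). Atp10a, a phospholipid transporter, had 39.2 and 235 CPM, which is a ratio of 6.01 (4.89 to 7.45). Ube3a, a ubiquitin ligase that is maternal in neurons and biallelic in most other cells, had 221 CPM on both days, which is a ratio of 1.00 (0.896 to 1.12). Of the 6 cluster genes with enough UMIs, Snrpn among them, 5 (83.3%) were called higher and none lower, beside 21.1% and 25.2% of all genes. The 5 include Snrpn, Snurf and Snhg14. Overlap of Snrpn, Snurf and Snhg14 means that reads cannot be assigned to 1 of them with certainty.

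Per kilobase of RefSeq gene span, introns included, the order at day 2.5 was Meg3 with 59.4 CPM per kb, Kcnq1ot1 with 13.5, Rian with 13.4, Mirg with 5.73, Grb10 with 1.81, Peg10 with 0.903, Igf2r with 0.611, H19 with 0.480 and Snrpn with 0.244. At day 0.5 Meg3 with 15.3 and Kcnq1ot1 with 12.4 led, followed by Rian with 3.91, Peg10 with 2.34 and Mirg with 2.15. Kcnq1ot1 and Rian at day 2.5 had nearly equal values. A UMI counts a molecule whatever its length, so this order depends on the annotated span, which was 467.7 kb for Snrpn and 2.62 kb for H19.

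Shares of cells depend on depth, so they were read after thinning to 5000 UMIs. Meg3 was found in 61.9% of thinned cells at day 0.5 (54.6 to 68.7) and 91.4% at day 2.5 (86.6 to 94.9). Rian was found in 43.8% and 77.8%, Grb10 in 21.1% and 41.9%, Snrpn in 21.1% and 40.4%, and Mirg in 11.9% and 26.3%, each with intervals that do not overlap. Igf2r was found in 13.9% (9.38 to 19.6) and 21.7% (16.2 to 28.1), and Peg10 in 10.3% (6.41 to 15.5) and 5.56% (2.81 to 9.72), with intervals that overlap. Kcnq1ot1 was found in 93.8% and 94.4%. These intervals are over the cells of 1 sample per day, so whether they overlap is no test between days. Cells without Meg3 had a lower median depth than cells with it in the unthinned table, 12037.5 against 14132 UMIs at day 0.5 and 13128 against 15920 at day 2.5.

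**Figure D3:**
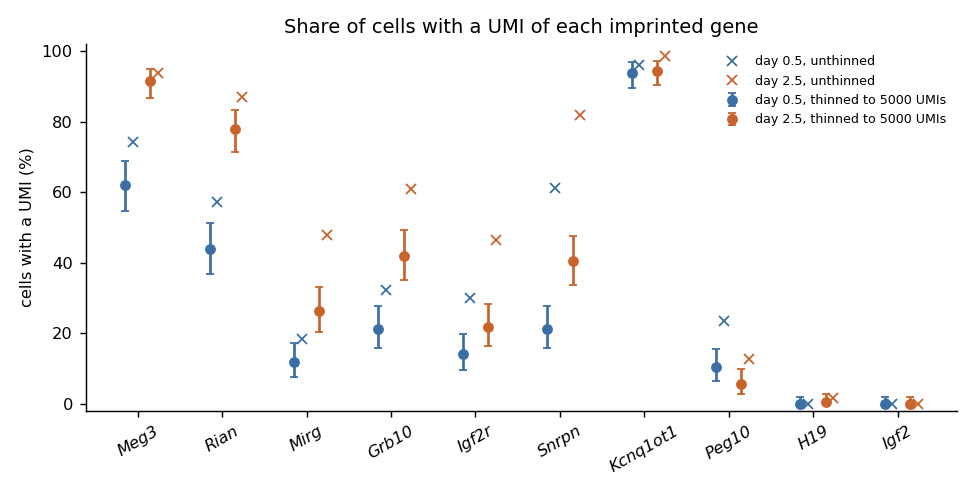
Percent of cells with a UMI of each gene at day 0.5 (blue) and day 2.5 (orange). Dots with 95% Clopper-Pearson intervals are cells thinned to 5000 UMIs, 194 and 198 cells, and crosses are all 201 and 205 cells unthinned. Meg3 goes from 61.9% to 91.4% of thinned cells, and Kcnq1ot1 lies at 93.8% and 94.4%.

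How evenly UMIs were spread over cells differed between these genes. At day 0.5 the 20 cells with the most Meg3 held 42.2% of its UMIs, and at day 2.5 they held 33.7%. For Kcnq1ot1 the same number of cells held 27% and 25.4%, and for Grb10 55.7% and 45.5%. These shares are of unthinned counts, and under random counting too they are larger for a gene with few UMIs. The ratio of variance to mean of thinned counts, which is 1 for random counting, was 4.23 at day 0.5 and 6.36 at day 2.5 for Meg3, and 2.46 and 3.98 for Rian. The median over all genes with at least 100 UMIs, 7715 at day 0.5 and 7713 at day 2.5, was 1.20 on both days. Igf2r had 1.05 at day 0.5, under this median, and 1.40 at day 2.5, or 1.10 without its top cell.

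The ratio grows with the level, so each gene was also set, after its values had been seen, beside genes whose mean thinned count lay within a factor of 1.25 of its own. Of 267 such genes at day 0.5, 1 had a higher ratio than Meg3, and of 17 at day 2.5, 1 did. For Rian 20 of 683 were higher at day 0.5 and 10 of 127 at day 2.5, and for Grb10 91 of 1193 and 37 of 724. Kcnq1ot1 had ratios of 3.40 and 2.83, with 9 of 55 and 26 of 51 genes of like mean above it. Snrpn was among the most even genes at day 0.5, with a ratio of 0.914 and 1204 of 1259 above it, but most of its values were fractions, which were rounded at random for this measure. Without its top cell Kcnq1ot1 had 2.61 at day 0.5 in place of 3.40, Peg10 had 1.13 at day 2.5 in place of 1.51, and Meg3 had 3.94 and 5.89.

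**Figure D4:**
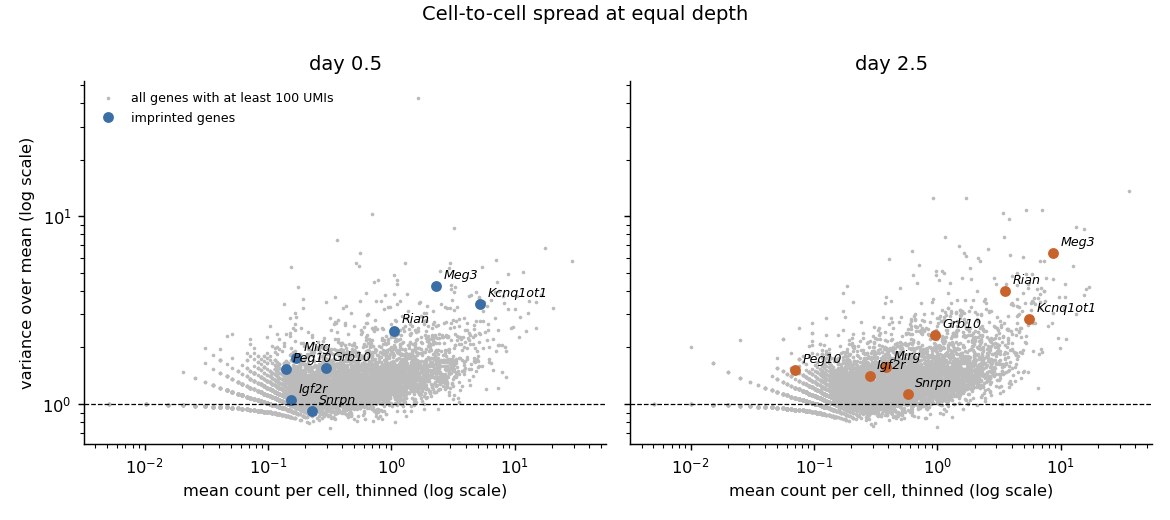
Variance over mean against mean of counts thinned to 5000 UMIs, both axes on a log scale, for genes with at least 100 UMIs over both days (grey) and 8 imprinted genes (coloured), at day 0.5 (left) and day 2.5 (right). The dashed line at 1 is random counting. Meg3 lies high among genes of its level, at 4.23 and 6.36, and Snrpn lies near the line, at 0.914 and 1.13.

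The days differed in the cell cycle classes of the deposited cell table. G1 cells were 20.4% of cells at day 0.5 and 40.0% at day 2.5, and Mid-S cells 43.3% and 30.2%. Within a class Meg3 was higher at day 2.5 by 2.08-fold in G1 (1.83 to 2.37), 8.0-fold in Early-S (6.60 to 9.75), 4.18-fold in Mid-S (3.78 to 4.63) and 4.09-fold in Late-S, G2 or M combined (3.64 to 4.61). Rian, Mirg, Grb10 and Snrpn were also higher in each of the 4 classes, by at least 1.5-fold. Igf2r was higher in 3 classes and had a ratio of 0.899 (0.438 to 1.87) in Late-S, G2 or M, on 35 UMIs. Peg10 was lower in 3 classes and had a ratio of 1.69 (0.390 to 7.36) in Early-S, on 10 UMIs. Kcnq1ot1 had 1.30 in G1, 1.52 (1.28 to 1.82) in Early-S, 0.918 (0.853 to 0.989) in Mid-S and 1.28 in Late-S, G2 or M, so among these classes it passed the fold of 1.5 in Early-S alone, which held 32 cells at day 0.5 and 15 at day 2.5. A class G0 held 4 cells of day 2.5 and none of day 0.5, with 3530 CPM of Meg3, 2182 of Rian and 446 of Mirg.

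Within a day, levels of some genes differed between classes by more than counting error. At day 2.5 Meg3 was 2734 CPM in Late-S, G2 or M and 1226 in G1, which is a ratio of 2.23 (2.08 to 2.39), with 1.74 in label 2 and 2.67 in label 3, while at day 0.5 that ratio was 1.13 (0.967 to 1.33), with 1.59 in label 1 and 0.912 in label 2. Grb10 was lower in Late-S, G2 or M than in G1 at day 2.5, with a ratio of 0.447 (0.350 to 0.566), and 0.441 and 0.454 within labels 2 and 3. At day 0.5 its ratio was 0.513 (0.278 to 0.919), but 0.740 (0.364 to 1.49) within label 2, and 0.145 (0.0161 to 0.615) within label 1, on 18 UMIs. Igf2r had a ratio of 0.428 (0.244 to 0.715) at day 2.5, with 0.519 and 0.254 within labels 2 and 3, and 0.864 (0.412 to 1.80) at day 0.5. Kcnq1ot1 had ratios of 1.13 (0.985 to 1.29) at day 0.5 and 1.11 (1.02 to 1.22) at day 2.5. The latter was 0.952 within label 2 and 1.29 (1.14 to 1.46) within label 3. Its other classes differed more at day 0.5, with 1308 CPM in Mid-S (1245 to 1373) and 651 in Early-S (576 to 733), beside 811 in G1. The sources used here do not say how the classes were made.

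**Figure D5:**
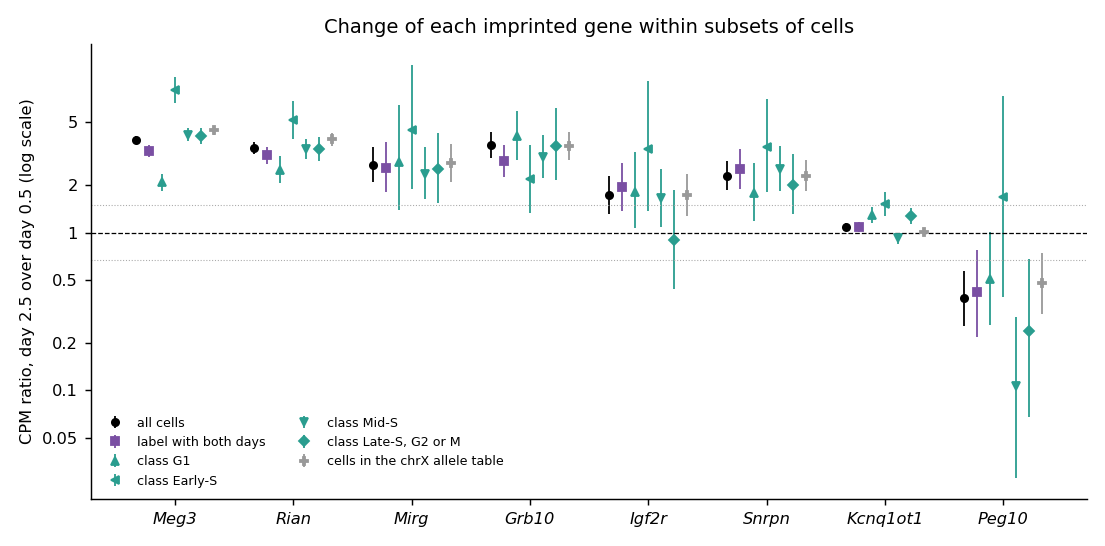
CPM ratio of day 2.5 over day 0.5 on a log scale with 95% counting intervals, for all cells and for subsets of cells by sample label, cell cycle class and presence in the chrX allele table. The dashed line marks equal levels and dotted lines a ratio of 1.5 and its inverse. Meg3, Rian, Mirg, Grb10 and Snrpn lie above 1.5 in every subset shown, Igf2r is at 0.899 in Late-S, G2 or M, and Peg10 is at 1.69 in Early-S.

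The authors also deposited a table of chromosome X counts split by parent, which holds 186 of the 201 cells of day 0.5 and 122 of the 205 of day 2.5. The sources used here do not say what kept a cell in it. At day 0.5 the 15 cells outside it were shallow, with a median of 5818 UMIs against 13931 inside. They had 443 CPM of Kcnq1ot1 (328 to 586) against 1061 inside, 9.05 of Rian (0.229 to 50.4) against 235, and 398 of Meg3 (289 to 534) against 474. At day 2.5 cells in it had 2116 CPM of Meg3 and cells outside it 1415, which is a ratio of 1.50 (1.42 to 1.58), with 1.36 within label 2 and 1.65 within label 3. For Rian the ratio was 1.62 (1.49 to 1.77), with 1.62 and 1.61 within the labels. Kcnq1ot1 with 0.891, Grb10 with 0.988, Igf2r with 1.03 and Snrpn with 0.980 were close to 1, although Grb10 had 1.43 in label 2 and 0.664 in label 3. Mirg had 1.21, with 0.771 in label 2 and 2.01 in label 3, and Peg10 had 2.27 (1.05 to 5.46) on 38 UMIs. Beside this, Xist, the RNA that coats the inactive X, was 30.0-fold higher in cells of the table (24.8 to 36.6), Dnmt3b 1.36-fold, and the naive gene Zfp42 had a ratio of 0.863 (0.503 to 1.49). Median depth was 15652.5 UMIs in the table and 16091 outside it. The part of these in the Meg3 difference was not tested.

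Beyond the 10 genes, a list of 62 other imprinted genes was read by the same rule. Of these 61 were in the table and 43 had enough UMIs, of which 13 were called higher and 12 lower, 30.2% and 27.9%, beside 21.1% and 25.2% of all genes. Their median log2 change was -0.10. Among the other genes with the most UMIs, Gnas, a G protein subunit, was higher with 118.8 and 320 CPM, and Herc3 with 39.5 and 131. Peg3, a zinc finger gene, had 206 and 231 CPM, which is a ratio of 1.12 (0.999 to 1.25), and Usp29 beside it had 45.9 and 50.8. Zim3 and Zfp264 of the same cluster were lower, on 20.5 and 24.5 UMIs. Mest was lower, with 41.2 and 21 CPM, and its neighbour Copg2 had 136 and 112.4. Zdbf2 was lower, with 316 and 202 CPM, while Trappc9 with 121 and 131 CPM and H13 with 104.3 and 96.8 were neither.

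Of 5 genes whose imprint rests on histone methylation from the egg, none was called higher and 3 were lower, where 21.1% and 25.2% of all genes were. Jade1 had 901 and 240 CPM, which is a ratio of 0.266 (0.245 to 0.289), Slc38a4, an amino acid transporter, 396 and 190, and Gab1, an adaptor of receptor kinases, 522 and 295. Sfmbt2 had 164 and 161 CPM, which is a ratio of 0.985 (0.865 to 1.12).

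Listed genes were also sorted by the parent they are known to be read from in at least some mouse tissue, a list written after their values had been seen. Of 8 maternally expressed genes with enough UMIs, 6 were higher and 1 lower, with a median log2 change of 0.99. Of 19 paternally expressed genes, 7 were higher and 5 lower, with a median of 0.12. Over all genes 21.1% were called higher and 25.2% lower. The 8 include 5 of the 6 members called higher, so this is a restatement of their values and not separate support.

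Proteins that keep imprints and those of the IGF pathway were read as a further list of 18 genes, of which 17 had enough UMIs, with 3 called higher (17.6%) and 6 lower (35.3%), beside 21.1% and 25.2% of all genes. Zfp57, which protects methylated control regions, was 20.5-fold lower, with 199 and 9.73 CPM and a ratio of 0.0488 (0.0328 to 0.0701). Its corepressor Trim28 had 150 and 54.6 CPM, the histone methyltransferase gene Ehmt2 84.3 and 22.1, the maintenance DNA methyltransferase gene Dnmt1 110 and 72.7, all called lower, as was its partner Uhrf1 with a ratio of 0.594 (0.493 to 0.714). Igf2bp2, an RNA binding protein gene, was lower with 331 and 173 CPM.

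Called higher were Smchd1, a chromatin protein of the inactive X and of imprinted clusters, with 276 and 583 CPM, and the receptor genes Igf1r with 440 and 861 and Insr with 117.8 and 228. The receptors that Grb10 acts on thus had ratios of 1.96 (1.83 to 2.10) and 1.94 (1.69 to 2.22), beside 3.59 for Grb10. Among those not called, Hells had 889 and 694 CPM, Igf2bp3 538 and 756, Arid4b 442 and 511 and Igf2bp1 452 and 304.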

How the data were processed

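Expression was read from a deposited table of UMIs per gene and cell, and the values the authors deposited are estimated counts, 11.09% of those above 0 being fractions. Per the submitters' processing notes the genome build was GRCm38. Aligner, counting tool, strand use, doublet handling and cell filters were not given in the sources used here. No doublet caller was run. The table also holds 1101 columns of no sample here, which were not used. Cells were tied to libraries through the cell names in the sample titles, and to days through the sample descriptions.

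UMIs were summed per day as deposited and scaled to 1000000 (CPM). Before thinning to 5000 UMIs a fraction was rounded up with a chance equal to its size, and 7 cells of each day were too shallow to keep. Levels have exact Poisson intervals, ratios exact conditional ones and shares Clopper-Pearson ones, at 95%. For a count of 0 the limit is 3 counts of the total. Gene positions and sequences came from RefSeq tables of GRCm38.p6, with no promoter entry for H19 or Peg10.

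Named genes are the 10 members, up to 4 other genes of each cluster with the most UMIs among those with at least 20, every factor past the fold with the 4 next most counted, and 3 genes most like each member. Genes next to the members by position, Xist, Dnmt3b and Zfp42, the UMI-poor cluster genes Dlk1, Rtl1, Dio3, Ins2 and Magel2, and the markers at 0, were added after values had been seen. Members and lists were chosen with earlier results of these data known. The fold, intervals and spread measure were run on simulated random counts, in which all cells of a day had the same expression. The fold and intervals were run there on genes with at least 100 UMIs, without the minimum of 20 UMIs or the direction within label 2. Such data check the code and cannot show that the calls or intervals hold for cells that differ. Subsets of cells for Airn were also chosen after seeing the data. Alternatives covered scaling, weighting of cells, fractions, subsets of cells, pseudocount, fold, minimum UMIs and thinning. Work was done in Python 3.11.15 with numpy 2.4.6, pandas 2.3.3, scipy 1.17.1 and matplotlib 3.10.9.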

Additional observations from a re-analysis of the deposited data

How the results depend on the processing

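No paired analysis was possible because the labels give no replicate numbers that tie cells of day 0.5 to cells of day 2.5, and each day is 1 sample. Under the alternatives run, 5 to 8 of the 10 imprinted genes passed the fold, against 7 as reported. In Early-S cells and in cells outside the chrX allele table the 7 were all higher, with Kcnq1ot1 among them and Peg10 under the minimum. Shares over all genes were not computed under these alternatives. The counts here and below therefore have no background beside them. Cells with the letter B in their names, whose meaning the sources do not give, were 42 and 32 and gave 5 of the 6 genes with enough UMIs. Mirg and Peg10 fell under the minimum there. Without a minimum, all 7 called genes kept their direction and passed the fold in these cells. Without a minimum of UMIs H19 was added as higher. Scaling by median ratios, a shift of 0.04 on the log2 scale before the pseudocount, left 7 past it.

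Igf2r had a log2 change of -0.13 in cells of Late-S, G2 or M. Peg10 had 0.57 in Early-S cells and 1.24 in cells outside the chrX allele table, on 10 and 9 UMIs, the latter with 0 at day 0.5. In G1 cells alone Peg10 was not called, because its direction within label 2 was the other way. These cell cycle and allele table subsets were added after seeing the data, and the cause was not tested. Outside the allele table Rian had 5.35, Mirg 3.98 and Kcnq1ot1 1.43, against 1.75, 1.29 and 0.12 in all cells, so Kcnq1ot1 passed the fold there. Rian and Mirg had 1 and 0 UMIs in those 15 cells of day 0.5. The other 25 imprinted genes past the fold became 12 with letter B, 12 in Early-S cells, 12 in Late-S, G2 or M cells and 15 with a minimum of 100 UMIs, where fewer genes were tested. Their median log2 change of -0.10 became 0.23 with letter B and 0.95 outside the allele table, and crossed 0 under other subsets and minimums, so its sign depends on these choices. The count of maintenance and IGF factors fell from 9 to 4 with a fold of 2. Under the other alternatives it ran from 8, as with median-ratio scaling where 5 were lower in place of 6, to 13 outside the allele table. Of the members' log2 changes under alternatives, 83 of 120 stayed within the counting interval of the reported value. Of 16 differences in share of cells between days, 15 stayed within a wider bound, set by the outer ends of the intervals of both days. Of 32 spread values 25 stayed within 1.5 times. Low counts limit H19, Igf2, Peg10 and the smaller subsets.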

Other observations

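The genes next to the imprinted clusters were read by position, taking the 3 nearest with at least 20 UMIs on each side. None of the 6 beside the Meg3 to Mirg stretch was called higher, where 21.1% of all genes were called higher and 25.2% lower. Wdr25 had a ratio of 0.852 (0.706 to 1.03), Begain 0.677 (0.300 to 1.50), Ppp2r5c 1.04 (0.943 to 1.15) and Dync1h1 1.44 (1.26 to 1.64). Gm34081, a noncoding gene upstream of Meg3, had 23 UMIs at day 0.5 and 1 at day 2.5, and the pseudogene Gm3379 had a ratio of 0.515 (0.382 to 0.691). Both were called lower, and 6 genes are too few to set apart from the shares of all genes.

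Cobl, an actin nucleator gene and the next gene after Grb10, was 8.64-fold lower at day 2.5, with 1609.5 and 223.5 UMIs. It was also the gene whose counts across cells went most with those of Grb10 within a day, at a mean rho of 0.194, which is weak. For Igf2r the 3 genes most alike were Tulp4 (0.183), Smad4 (0.182) and Uhrf1bp1l (0.161), for Kcnq1ot1 they were Zbtb20 (0.275), Etl4 (0.271) and Ppp1r9a (0.230), for Grb10 after Cobl they were Arid1b (0.194) and Iqgap2 (0.170), and for Snrpn they were Gm38393 (0.353), Ttc14 (0.163) and Abhd12 (0.162). The median rho over all partner genes lay between -0.0021 and 0.0025 for these genes and those of the Meg3 cluster. Gm38393 has no position in the RefSeq table used. Beside Igf2r, Map3k4 was higher with a ratio of 2.17 (1.74 to 2.73) and Pnldc1 lower with 0.395 (0.298 to 0.521). In the Snrpn region the noncoding A230057D06Rik was lower on 21 UMIs, with a ratio of 0.625 (0.233 to 1.62), and Magel2 had 1 UMI at day 0.5 and 25 at day 2.5.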
